A study of Mus musculus with 54 samples.

Results

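Genes of iron and heme handling were examined in brain macrophages sorted at rest and 12 h after a systemic bacterial endotoxin. The 10 genes, of 33280 gene symbols counted, were chosen by name for their role, with earlier results of these data known. All were measured in every comparison. They comprise the exporter Slc40a1, the ferroxidase Cp, the ferritin chains Fth1 and Ftl1, the ferritin receptor Ncoa4, the uptake genes Tfrc, Slc11a2 and Slc11a1, and the heme-degrading enzymes Hmox1 and Blvrb.

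Bulk RNA-seq was available from 54 libraries in 18 groups of 3, made from microglia (MG), the macrophages of the brain parenchyma, and from subdural CNS-associated macrophages (sdCAMs), those of the leptomeninges and the perivascular spaces. Wild-type (WT) mice and mice labelled Ccr2-/- were untreated and injected with PBS, treated with vehicle (CTL) and injected with lipopolysaccharide (LPS), or treated with BLZ945 and injected with LPS. BLZ945 inhibits the CSF1 receptor and empties these macrophage niches, which had 8 weeks to refill before LPS. Reporter mice, labelled Ccr2CreERT2/CreERT2:R26tdT/tdT, all received BLZ945 and tamoxifen and then LPS or PBS, and gave MG, tdT+ sdCAMs and tdT- sdCAMs, where tdT+ marks cells whose ancestors expressed Ccr2 when tamoxifen was given. In WT and Ccr2-/- mice the LPS comparison set CTL with LPS against untreated with PBS, so vehicle and LPS cannot be told apart there, whereas in reporter mice both arms had received BLZ945. Reporter libraries carried another batch label than WT and Ccr2-/- libraries, and levels were therefore not compared between genotypes. MG and sdCAMs of a mouse came from the same animal, brains were taken without choroid plexus, and replicates are separate mice.

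As background, macrophages of the body recycle iron by breaking down heme from engulfed red blood cells and returning the iron to the circulation. Transferrin receptor (Tfrc) and divalent metal transporters bring iron in, ferritin stores it in a shell of heavy (Fth1) and light (Ftl1) chains, and ferroportin (Slc40a1) is the known cellular exporter of iron, aided by ferroxidases such as ceruloplasmin (Cp). Inflammation is known to lower ferroportin and raise ferritin in macrophages, which holds iron back from microbes.

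Several of these genes are also controlled after transcription through iron-responsive elements, short hairpins in the untranslated regions of the mRNA that are bound by iron regulatory proteins when iron is scarce. Elements in a 5′ UTR block translation and elements in a 3′ UTR protect the message from decay, so that for Fth1, Ftl1 and Slc40a1 the level of mRNA is not the level of protein. The elements found in the transcripts of GENCODE M21 (GRCm38) are shown for the 4 of the 10 genes that held a match, 3 with the pattern at the start and 1 at the end of the message. Each was found on the transcript strand as a C, 5 bases, the loop CAGTG with 1 further base, and 5 bases that pair with those before the loop, G-T pairs allowed. Capitals mark the loop.
Fth1, 5′ UTR, chr19:9982733-9982759 (+): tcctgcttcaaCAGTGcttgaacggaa
Ftl1, 5′ UTR, chr7:45459780-45459806 (-): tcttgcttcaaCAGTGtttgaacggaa
Slc40a1, 5′ UTR, chr1:45925466-45925492 (-): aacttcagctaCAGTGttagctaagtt
Tfrc, 3′ UTR, chr16:32631220-32631246 (+): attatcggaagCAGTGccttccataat
Tfrc, 3′ UTR, chr16:32631599-32631625 (+): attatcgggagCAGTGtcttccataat
Tfrc, 3′ UTR, chr16:32631664-32631690 (+): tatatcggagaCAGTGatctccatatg
Tfrc, 3′ UTR, chr16:32631711-32631737 (+): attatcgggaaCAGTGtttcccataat

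Of 20529 genes with an annotated 5′ UTR, 28 (0.136%) held this pattern there, among them 3 of the 10 genes studied here. Of 20903 genes with a 3′ UTR, 127 (0.608%) held it, among them Tfrc alone of the 10, with 4 sites. The loop letters by themselves were common, at 31.3% of genes with a 5′ UTR and 68.9% of those with a 3′ UTR. A match describes the annotated sequence and was not tested for function.

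Library totals ran from 1705930 to 11330781 counts, with WT sdCAMs at 1705930 to 7699790 and reporter sdCAMs after LPS at 2060240 to 8751293. Levels below are counts relative to library size (CPM) after scaling all 54 libraries by the trimmed mean of M values (TMM), and a gene is called where its adjusted p in edgeR's quasi-likelihood test is under 0.05. TMM factors ran from 0.363 to 1.37 and were lowest in sdCAM libraries after LPS. The labels mark 6 WT sdCAM libraries with IEG_correction, which had factors of 0.363 to 0.521 after LPS and 2.66 to 3.70% of their counts in ribosomal protein genes there, against 0.82 to 0.979% in unmarked WT sdCAM libraries after LPS. Results in these cells are therefore given also with library totals alone. The mark was on all WT sdCAM libraries after CTL and LPS, on those of untreated mice 9 and 14 and on that of BLZ945 mouse 12. The unmarked libraries after LPS were those of BLZ945 mice 8 and 11. Mark and treatment are thus partly confounded in WT sdCAMs. Summed sdCAM markers (Mrc1, Cd163, Lyve1, Pf4, Ms4a7, Cbr2, F13a1, Clec12a) followed the labels, at 0.421 to 31.9 CPM in MG and 932 to 24800 CPM in sdCAMs. 1 library stood apart, tdT+ sdCAMs of LPS mouse 5, in which 6 microglial markers lay at a median of 82% of their level in MG of the same mouse, against 3.61 and 9.95% in the other tdT+ libraries after LPS. In WT sdCAMs this median was 19.4 to 36.8% at rest, 9.67 to 17.3% after CTL and LPS and 23.5 to 27% after BLZ945 and LPS. In Ccr2-/- sdCAMs it was 8.32 to 14.8%, and in reporter sdCAMs after PBS 8.3 to 26.4%. The part of this microglial signal in the comparisons was not tested. The columns of a pair of reporter libraries after LPS, tdT- of mouse 1 and tdT+ of mouse 7, carried index numbers that the labels give to each other's library. Sex-linked genes went against the labels in this pair. In mouse 1 as labelled, MG and tdT+ sdCAMs held 51.4 and 136 CPM of the Y-linked Ddx3y and 0 and 0.396 of Xist, whereas tdT- sdCAMs held 0 and 490. In mouse 7, MG and tdT- sdCAMs held 0 CPM of Ddx3y and 745 and 439 of Xist, whereas tdT+ sdCAMs held 107 and 0. With the pair exchanged the 3 libraries of each of these mice were alike in both genes. The groups follow the labels here, and calls of the 10 genes in reporter sdCAMs after LPS that changed with the exchange are named as such. Other genes were not examined with the exchange. By a limit of 1 CPM of Ddx3y, 4 of 24 mice held unlike libraries, the other two being reporter LPS mouse 5 (up to 1.69 CPM) and Ccr2-/- mouse 3m (up to 3.19), each with Xist in all libraries. Ccr2 lay at 16.7 to 49.9 CPM in untreated WT sdCAMs and at 2.36 to 5.28 in those labelled Ccr2-/-, but at 0 to 0.715 in WT and 3.12 to 5.49 in Ccr2-/- sdCAMs after CTL and LPS, so the label could be checked at rest only.

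The first question was how LPS changed the 10 genes in each sorted population. In WT and Ccr2-/- MG, LPS lowered the exporter Slc40a1 and the ferritin receptor Ncoa4 and raised Cp, Fth1, Tfrc and Slc11a2. In WT MG 7 of the 10 genes were called, 4 higher and 3 lower, where 30.9% of all genes tested were called. In Ccr2-/- MG 8 were called, 5 higher and 3 lower, beside 34.9% of all genes. Reporter MG had 1 call beside 1.08% of all genes. In sdCAMs the fall of Slc40a1 and the rise of Cp came with further changes. In Ccr2-/- sdCAMs 9 genes were called, 5 higher and 4 lower, beside 28.8% of all genes, and in WT sdCAMs 3 were called beside 6.32%. In tdT+ sdCAMs 8 were called, 4 in each direction, beside 13.6% of all genes, and in tdT- sdCAMs 5 were called beside 27.1%. With the pair of reporter columns exchanged these counts were 3 in tdT+ and 4 in tdT- sdCAMs, and without the pair 5 and 4. The share of all genes called in these fits is not given here, so the change cannot be read as particular to the 10 genes. The median log2 fold change over the 10 genes lay between 0.33 and 1.13 in the 7 populations and that over all genes tested between -0.075 and 0.04.

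**Figure D1:**
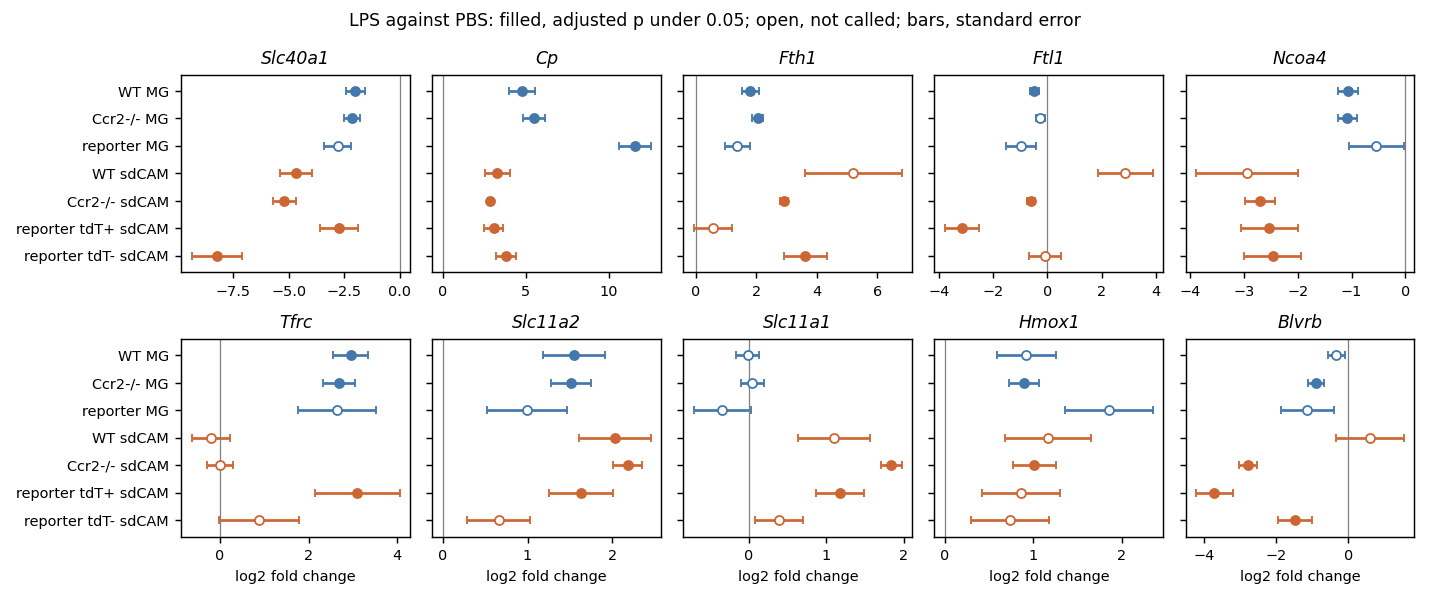
Log2 fold change of each gene after LPS against PBS (x axis, a scale of its own in each panel) in 7 sorted populations (rows), with standard errors as bars, MG in blue, sdCAMs in orange, and filled points for an adjusted p under 0.05. Slc40a1 and Ncoa4 lie left of 0 and Cp and Fth1 right of 0 in every population, while Tfrc lies near 0 in WT and Ccr2-/- sdCAMs and to the right in MG.

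Slc40a1 encodes ferroportin. In WT MG its level was 374, 467 and 450 CPM at rest and 39, 195 and 83.0 after LPS. In Ccr2-/- MG it was 414, 551 and 492 at rest and 70.2, 157 and 95.3 after LPS. The groups did not overlap in either case, and the gene fell by 2.00 on the log2 scale in WT MG (SE 0.424, edgeR adjusted p = 0.00427) and by 2.14 in Ccr2-/- MG (SE 0.365, adjusted p = 0.000452). Without WT MG of LPS mouse 4 the fall in WT MG was by 2.78.

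In sdCAMs Slc40a1 fell to a few percent of its level at rest. WT sdCAMs had 202, 245 and 349 CPM at rest and 3.57, 8.85 and 14.6 after LPS. Ccr2-/- sdCAMs had 1120, 800 and 1010 at rest and 18.2, 33.7 and 28.5 after LPS. The log2 fold change was -4.65 in WT sdCAMs (SE 0.718, adjusted p = 0.00647) and -5.19 in Ccr2-/- sdCAMs (SE 0.499, adjusted p = 7.76e-06), a 25.1-fold and a 36.5-fold reduction. Without WT sdCAMs of LPS mouse 6 the WT value was -5.32. The fall had the same sign with library totals alone.

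In tdT- sdCAMs Slc40a1 fell to a few counts. Their libraries held 599, 882 and 548 CPM after PBS and 0.31, 2.12 and 4.23 after LPS, the latter from 1, 9 and 10 counts. The log2 fold change was -8.24 (SE 1.12, adjusted p = 7.14e-05), -9.0 without LPS mouse 7 and -7.97 with the pair exchanged (adjusted p = 0.00179). In tdT+ sdCAMs the values were 119, 166 and 79.2 CPM after PBS and 3.57, 46.8 and 1.52 after LPS, with a log2 fold change of -2.73 (SE 0.842, adjusted p = 0.0424). The 46.8 CPM belonged to mouse 5, the library with microglial markers, whose own MG held 43.6 CPM, and without it the value was -5.58 (adjusted p = 0.000162). That call was lost on leaving out any 1 of the other 5 tdT+ libraries (adjusted p 0.0537 to 0.134), with library totals alone (0.0684) and with the uncertain columns exchanged (0.0924). In reporter MG Slc40a1 was 344, 108 and 462 CPM after PBS and 25.0, 43.6 and 65.4 after LPS, without overlap and without a call (log2 fold change -2.79, adjusted p = 0.0842), and it was called without PBS mouse 175 (adjusted p = 0.0101).

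Cp encodes ceruloplasmin, a copper enzyme that oxidises iron leaving the cell. MG had almost none at rest, with 3.26, 4.59 and 4.39 CPM in WT and 0.811, 3.84 and 0.335 in Ccr2-/- mice, and 235, 17.2 and 74.5 and 75.0, 42 and 114 CPM after LPS. It rose by 4.76 on the log2 scale in WT MG (SE 0.794, adjusted p = 0.00104) and by 5.48 in Ccr2-/- MG (SE 0.672, adjusted p = 2.92e-05). WT LPS mouse 1 and Ccr2-/- mouse 3m at rest weighed on these sizes, which were 3.53 and 7.05 without them. Reporter MG after PBS held 0, 0 and 1 count of Cp in 3 libraries and 74.3, 177 and 161 CPM after LPS, a ratio of 4350 with a 95% counting interval of 780 to 172000 (edgeR adjusted p = 0.00609). That call rested on the fit with all 6 libraries, since without MG of LPS mouse 1 or of LPS mouse 5 the adjusted p was 0.0529 and 0.0517, and without MG of PBS mouse 177, the only library with a count at rest, the fitted log2 fold change was 13.45.

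sdCAMs expressed Cp at rest and raised it further. Ccr2-/- sdCAMs went from 551 and 552 CPM in mice 5f and 3m and a somewhat higher value in mouse 1m (mean 565 ± 22.5, SD, n = 3) to 4330, 4080 and 3730, a 7.18-fold rise (log2 fold change 2.84, SE 0.129, adjusted p = 1.72e-08) with little scatter. WT sdCAMs went from 450, 397 and 370 to 4100, 3330 and 2980 CPM (3.28, SE 0.757, adjusted p = 0.0306). The WT groups were far apart, yet the call was lost without any 1 of the 6 libraries (adjusted p 0.0658 to 0.136) and with library totals alone, where the log2 fold change was 1.80 (adjusted p = 0.0927). tdT+ sdCAMs went from 315, 235 and 374 to 3180, 850 and 3420 CPM (3.06, adjusted p = 0.00244), the 850 again being mouse 5. tdT- sdCAMs went from 351, 419 and 468 to 2680, 10300 and 3570 CPM (3.82, adjusted p = 0.000196), and the value was 2.97 without LPS mouse 5. In each of these populations every library after LPS exceeded every library at rest.

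**Figure D2:**
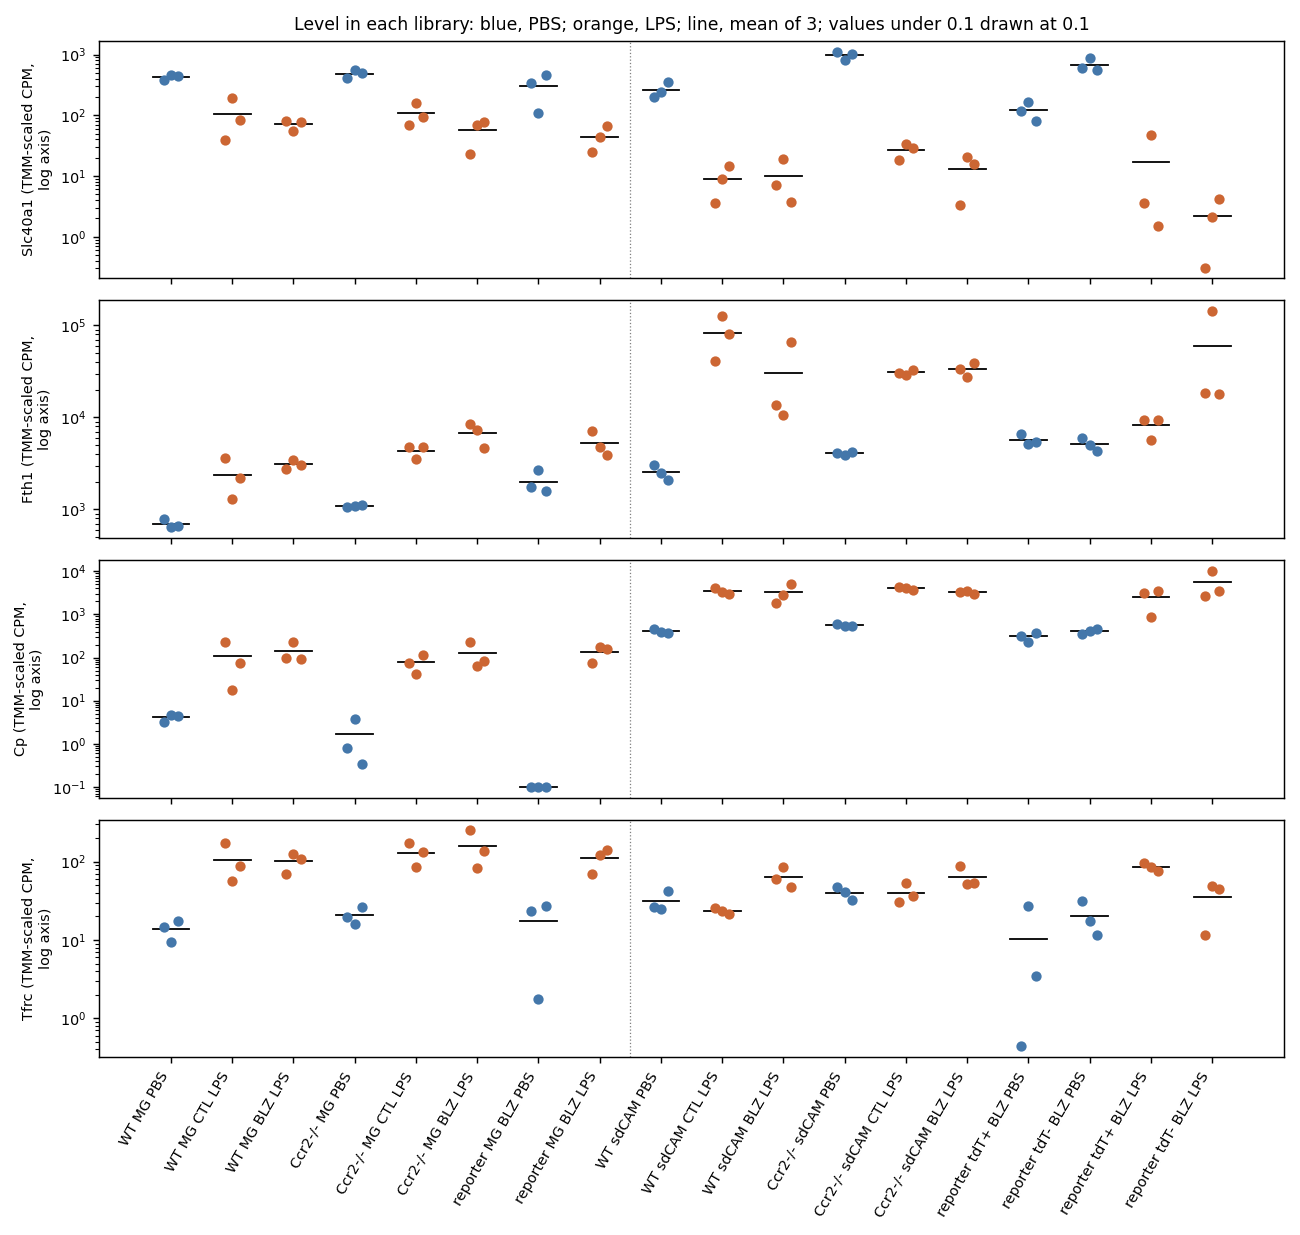
Level of Slc40a1, Fth1, Cp and Tfrc in each library (y axis, TMM-scaled CPM on a log scale, values under 0.1 drawn at 0.1) by group (x axis), PBS in blue, LPS in orange, with lines at the mean of 3 libraries and a dotted line between MG and sdCAMs. In tdT- sdCAMs Slc40a1 went from 548 to 882 CPM after PBS to 0.31 to 4.23 after LPS, and Cp from 351 to 468 to 2680 to 10300 CPM. WT and Ccr2-/- libraries carry another batch label than reporter libraries.

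Fth1, the heavy chain of ferritin that carries its ferroxidase activity, rose in WT and Ccr2-/- MG and in Ccr2-/- and tdT- sdCAMs. In MG its level was 794, 640 and 659 CPM at rest and 3650, 1300 and 2190 after LPS in WT mice, and 1060, 1080 and 1120 at rest and 4780, 3520 and 4780 after LPS in Ccr2-/- mice. The rise was 3.48-fold in WT MG (log2 fold change 1.80, SE 0.284, adjusted p = 0.000729) and 4.12-fold in Ccr2-/- MG (2.04, SE 0.188, adjusted p = 2.49e-06). In reporter MG it was 1.36 on the log2 scale and not called (SE 0.411, adjusted p = 0.168), and was called without PBS mouse 175 (1.68, adjusted p = 0.0433).

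In sdCAMs Fth1 reached percents of all counts. Ccr2-/- sdCAMs went from 4090, 3920 and 4230 CPM to 30300, 29200 and 33000, a 7.55-fold rise (2.92, SE 0.133, adjusted p = 1.72e-08), and Fth1 made up 2.73 to 3.11% of their counts after LPS. WT sdCAMs went from 3060, 2510 and 2090 to 41500, 126000 and 81100 CPM. These groups were apart but scattered widely after LPS, and the log2 fold change of 5.20 (SE 1.61) was not called (adjusted p = 0.0768). It was called with library totals alone (3.77, adjusted p = 0.00855), where the levels were 2510 to 2640 CPM at rest and 15100 to 47500 after LPS, and with the marked libraries alone (5.01, adjusted p = 0.00613), and DESeq2 called it as well (5.22, adjusted p = 5.75e-10).

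In reporter sdCAMs Fth1 was called in tdT- and not in tdT+ cells, and the test of the difference in response was not called (-3.06, adjusted p = 0.0659). tdT- sdCAMs went from 5980, 5030 and 4320 CPM to 18300, 143000 and 18000, a 12.3-fold rise (log2 fold change 3.62, SE 0.70, adjusted p = 0.00124), of which 1.88 remained without LPS mouse 5 (adjusted p = 0.000406), and it was 3.55 with the pair exchanged (adjusted p = 0.0234). In that library Fth1 alone took 6.95% of all counts (95% Wilson interval 6.93 to 6.97%). tdT+ sdCAMs went from 6640, 5130 and 5440 to 9480, 5650 and 9470 CPM, which overlapped (0.56, SE 0.633, adjusted p = 0.617).

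**Figure D3:**
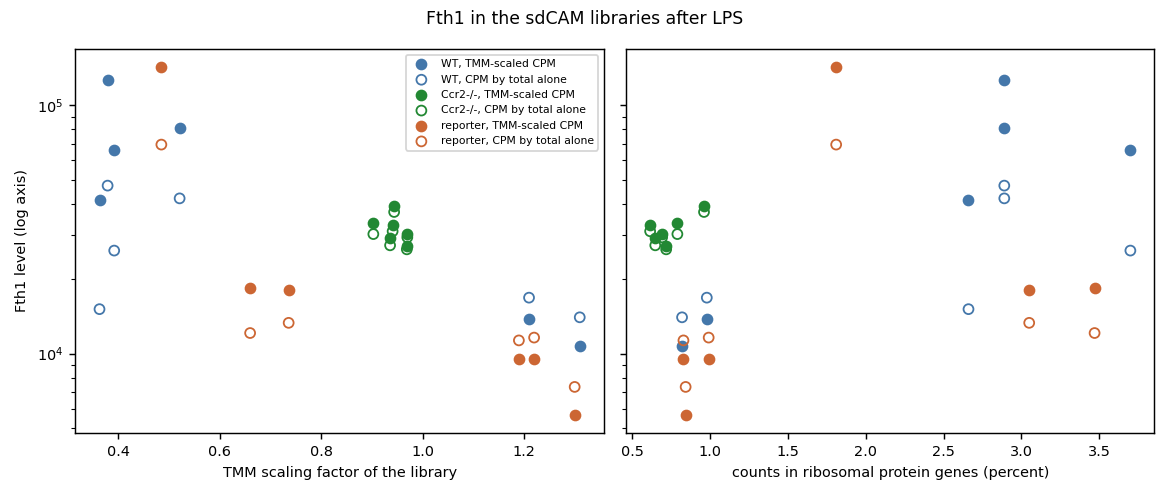
Fth1 level (y axis, log scale) in the sdCAM libraries after LPS against the TMM factor (left, x axis) and against the percent of counts in ribosomal protein genes (right, x axis), with filled points for TMM-scaled CPM and open points for CPM by library total, coloured by genotype. The 5 libraries with a TMM factor of 0.521 or less had scaled values of 41500 to 143000 CPM, and Ccr2-/- libraries sit close together on either scale.

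Ftl1, the light chain, gave other directions than the heavy chain. In WT MG it was 202, 154 and 146 CPM at rest and 109, 107 and 135 after LPS, and fell by 0.49 on the log2 scale (SE 0.168, adjusted p = 0.0448). That call was lost without any 1 of 5 of the 6 libraries, LPS mouse 6 excepted (adjusted p 0.0525 to 0.189), and with library totals alone (0.102). In Ccr2-/- MG it was 214 to 227 CPM at rest and 173 to 192 after LPS (log2 fold change -0.26, adjusted p = 0.211), and in reporter MG the groups overlapped (-0.97, adjusted p = 0.53). Ccr2-/- sdCAMs went from 948 to 1000 CPM at rest to 528 to 689 after LPS, a fall by 0.62 (SE 0.147, adjusted p = 0.00693), with an adjusted p of 0.0505 without LPS mouse V1m. tdT+ sdCAMs went from 3100, 2970 and 3390 CPM to 360, 289 and 380, an 8.95-fold fall (log2 fold change -3.16, SE 0.625, adjusted p = 0.00375). In tdT- sdCAMs, with 2960, 2670 and 2610 CPM after PBS and 860, 5800 and 720 after LPS, mouse 5 stood alone above the PBS range. The log2 fold change was -0.09 (adjusted p = 0.928), 0.08 with DESeq2's size factors, and -1.75 without mouse 5 (adjusted p = 0.000292). In WT sdCAMs the values were 347 to 407 CPM at rest and 629, 5200 and 1670 after LPS, apart but uncalled (2.88, adjusted p = 0.109). DESeq2 (2.91, adjusted p = 0.0106) and the marked libraries alone (2.82, adjusted p = 0.0385) gave a call, while with library totals alone the groups overlapped, at 349 to 480 and 229 to 1970 CPM (1.37, adjusted p = 0.187). Counts of Ftl1 may be shared with the pseudogene Ftl1-ps2, and adding that row moved no value across the threshold.

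Ncoa4 carries ferritin to the lysosome, where its iron is released. Its fitted log2 fold change was negative in all 7 populations and called in 5. In MG the levels were 67.9 to 91.4 CPM at rest and 33.8 to 41.1 after LPS in WT mice, and 62.9 to 74.1 and 30.6 to 31.8 in Ccr2-/- mice. The gene fell by 1.07 (SE 0.185, adjusted p = 0.00129) and by 1.08 on the log2 scale (SE 0.179, adjusted p = 0.000357), a 2.10-fold and a 2.11-fold reduction. In Ccr2-/- sdCAMs it was 145, 150 and 140 CPM at rest and 15.8, 30.8 and 20.0 after LPS (-2.71, SE 0.283, adjusted p = 1.56e-05). tdT+ sdCAMs went from 101, 137 and 151 to 4.76, 39.6 and 20.4 CPM (-2.53, adjusted p = 0.00574, and -3.32 without mouse 5), and tdT- sdCAMs from 83.0, 154 and 121 to 19.9, 17.9 and 23.7 (-2.47, adjusted p = 0.00303). WT sdCAMs had 33.9, 52.2 and 74.8 CPM at rest and 6.43, 4.43 and 6.70 after LPS without a call (-2.95, adjusted p = 0.0845), and were called with library totals alone (-4.48, adjusted p = 0.00209). Reporter MG overlapped (-0.54, adjusted p = 0.765).

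Tfrc, the receptor for transferrin-bound iron, rose in WT and Ccr2-/- MG. WT MG had 14.6, 9.38 and 17.6 CPM at rest and 171, 56.9 and 87.8 after LPS, and Ccr2-/- MG had 19.9, 16 and 26.5 at rest and 173, 86.2 and 132 after LPS. The rise was 7.71-fold (log2 fold change 2.95, SE 0.394, adjusted p = 0.000251) and 6.44-fold (2.69, SE 0.363, adjusted p = 6.81e-05), with no overlap. In sdCAMs of the same mice Tfrc was not called, with 26.6, 25.1 and 42 against 25.7, 23.2 and 21.3 CPM in WT (-0.21, SE 0.427, adjusted p = 0.801) and 47.2, 41.5 and 32.2 against 30.2, 54.2 and 36.8 in Ccr2-/- mice (0.00, SE 0.291, adjusted p = 0.996). With library totals alone the WT groups were apart, at 23 to 50.3 CPM at rest and 8.8 to 11.1 after LPS, without a call (-1.75, adjusted p = 0.094). tdT+ sdCAMs went from 0.437, 26.8 and 3.42 CPM to 95.5, 84.4 and 76.8 (3.10, SE 0.961, adjusted p = 0.0431). Every LPS value lay above every PBS value, but the call was lost without any 1 of 5 libraries, PBS mouse 175 excepted (adjusted p 0.07 to 0.139), and the log2 fold change was 5.48 without that mouse. tdT- sdCAMs overlapped, at 31.1, 17.7 and 11.6 CPM after PBS and 11.5, 49 and 44.9 after LPS (0.88, adjusted p = 0.499). Reporter MG, at 1.78 to 27.2 CPM after PBS and 69.2 to 139 after LPS, were apart but not called (2.65, SE 0.883, adjusted p = 0.217), and were called without PBS mouse 175 (2.12, adjusted p = 0.0428).

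Slc11a2 and Slc11a1 encode divalent metal transporters of endosomes and of phagosomes, the former for general iron uptake and the latter known for resistance to bacteria inside macrophages. Slc11a2 was 32.5, 30.5 and 46.5 CPM at rest and 179, 48.7 and 87.9 after LPS in WT MG, a 2.93-fold rise (1.55, adjusted p = 0.0078) that was 0.94 on the log2 scale without LPS mouse 1. It rose 2.86-fold in Ccr2-/- MG, from 37.1 to 49.8 CPM to 90.0 to 153 (adjusted p = 0.000197), and 4.53-fold in Ccr2-/- sdCAMs, from 52.4 to 65.7 CPM to 244 to 300 (adjusted p = 1.49e-06). In WT sdCAMs it went from 18.7, 19.5 and 33.7 CPM to 98.6, 73.0 and 83.0 (2.03, adjusted p = 0.0208). That call was lost without LPS mice 1 or 6 or untreated mice 9 or 14 (adjusted p 0.0647 to 0.0971), and with library totals alone the groups overlapped, at 16.1 to 40.4 and 27.7 to 43.3 CPM (0.48, adjusted p = 0.628). In reporter MG it was 25.7 to 69.1 CPM after PBS and 91.8 to 96.4 after LPS, apart but uncalled (0.99, adjusted p = 0.426). In tdT+ sdCAMs it rose 3.09-fold (adjusted p = 0.00974), not called without LPS mouse 7 (0.0622) or PBS mouse 177 (0.0548), and in tdT- sdCAMs the log2 fold change was 0.66 (adjusted p = 0.201) with a sign that turned under library totals alone (-0.12).

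Slc11a1 rose in Ccr2-/- and tdT+ sdCAMs and was not called in MG. WT MG held 283 to 298 CPM at rest and 243 to 332 after LPS (log2 fold change -0.01, adjusted p = 0.968), and Ccr2-/- MG 322 to 339 and 291 to 361 (0.05, adjusted p = 0.834). Ccr2-/- sdCAMs went from 265, 259 and 284 CPM to 909, 975 and 1020, a 3.59-fold rise (1.84, SE 0.134, adjusted p = 7.39e-07). tdT+ sdCAMs went from 240, 282 and 268 to 634, 391 and 711 CPM (1.18, adjusted p = 0.0198), a call lost without any 1 of 5 libraries, LPS mouse 5 excepted (adjusted p 0.0579 to 0.0993). With the uncertain columns exchanged, tdT+ sdCAMs kept the calls of Blvrb, Ncoa4 and Cp and lost those of Tfrc, Slc11a1, Slc11a2, Ftl1 and Slc40a1 (adjusted p 0.0664 to 0.184). WT sdCAMs, at 190 to 209 CPM before and 318 to 474 after, were not called (1.10, adjusted p = 0.163), and with library totals alone the sign turned (-0.40). tdT- sdCAMs were not called either (0.39, adjusted p = 0.371), with a sign that turned likewise (-0.35).

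Heme degradation was examined last. Hmox1, heme oxygenase 1, which opens the heme ring and frees its iron, was 36.9 to 45.4 CPM at rest and 62.7 to 85.9 after LPS in Ccr2-/- MG (log2 fold change 0.89, SE 0.172, adjusted p = 0.00118). In Ccr2-/- sdCAMs it went from 187, 127 and 197 CPM to 237, 482 and 309 (1.01, SE 0.243, adjusted p = 0.00763). WT MG, at 26.0 to 35.9 and 46.3 to 77.6 CPM, did not overlap and fell just outside the threshold (0.92, adjusted p = 0.0533), and passed it without LPS mouse 4 (0.0355) and with library totals alone (0.0342). In WT sdCAMs (1.16, adjusted p = 0.167) and tdT- sdCAMs (0.74, adjusted p = 0.228) Hmox1 was not called and its sign turned with library totals alone (-0.44 and -0.11). tdT+ sdCAMs (0.86, adjusted p = 0.219) and reporter MG (1.85, adjusted p = 0.124) were not called.

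Blvrb reduces biliverdin, the product of heme oxygenase. In Ccr2-/- sdCAMs it went from 291, 321 and 278 CPM to 33.3, 46.1 and 50.3, a 6.88-fold fall (log2 fold change -2.78, SE 0.259, adjusted p = 5.94e-06). tdT+ sdCAMs went from 303, 329 and 269 to 9.12, 24.2 and 33.2 CPM, a 13.1-fold fall (-3.72, SE 0.51, adjusted p = 0.000305). tdT- sdCAMs went from 279, 323 and 295 to 85.3, 176 and 43.6 CPM (-1.48, SE 0.465, adjusted p = 0.0272). The groups were apart in all these populations. The tdT- value was -2.16 without LPS mouse 5, and the call was lost without LPS mice 1 or 7 or PBS mice 175 or 177 (adjusted p 0.0501 to 0.0745) and with the columns exchanged (0.122). In Ccr2-/- MG it fell by 0.90 (adjusted p = 0.00606), and in WT MG the log2 fold change was -0.33 (adjusted p = 0.327) and in reporter MG -1.14 (adjusted p = 0.594). WT sdCAMs spread from 124 to 746 CPM after LPS across 131 to 367 at rest (0.61, adjusted p = 0.732), and the sign turned with library totals alone (-0.82).

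Markers of other cells were read beside these changes. In WT sdCAMs the summed neutrophil markers (6 genes) lay at 1.3 to 92.5 CPM at rest and 341 to 3110 after CTL and LPS, with Ly6g, Retnlg and Ngp at 0, and in tdT- sdCAMs they went from 0 to 553 to 2160 CPM with the same 3 at 0. In Ccr2-/- sdCAMs after LPS they were 61.3 to 98.4 CPM, and in tdT+ sdCAMs 8.31 to 46. With the pair of columns exchanged, the tdT+ and tdT- ranges of these markers after LPS overlapped. Summed monocyte markers (4 genes, Ccr2 among them) went from 233 to 289 CPM after PBS to 9.86 to 26.6 after LPS in tdT+ and from 145 to 292 to 8.89 to 76.3 in tdT- sdCAMs, and from 28.3 to 51 to 3.22 to 33.8 in WT sdCAMs, with Chil3 at 0 in all of these groups. Choroid plexus markers (3 genes) reached 1790 CPM in WT sdCAMs after CTL and LPS and 296 at most in any other group, and erythroid markers (6 genes found) reached 628 CPM in tdT- sdCAMs after LPS and 304 in WT sdCAMs at rest. Their part in the changes was not tested. In such bulk samples fewer cells of a type and less RNA per cell cannot be told apart.

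The following question was how the sorted cell types differed at rest. sdCAMs expressed more Cp and more Blvrb than MG in all 3 genotypes. For Cp, sdCAMs held 370 to 450 CPM in WT and a mean of 565 in Ccr2-/- mice, against 3.26 to 4.59 and 0.335 to 3.84 in MG of the same mice. The difference was 6.71 on the log2 scale in WT (SE 0.841, adjusted p = 4.25e-05) and 8.32 in Ccr2-/- mice (SE 0.626, adjusted p = 8.04e-09), the latter 9.89 without MG of mouse 3m. In reporter mice, with a single Cp count in all 3 MG libraries, the ratio was 11400 (95% counting interval 2040 to 450000, edgeR adjusted p = 1.08e-07). For Blvrb the log2 difference was 3.88 in WT (SE 0.801, adjusted p = 0.0036), 3.38 in Ccr2-/- (SE 0.248, adjusted p = 6.17e-09) and 3.07 in reporter mice (SE 0.55, adjusted p = 0.000864), the last 3.79 without MG of PBS mouse 175.

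Of the 10 genes 3 were called in WT mice at rest, all higher in sdCAMs, beside 17.4% of all genes tested, 6 in Ccr2-/- mice, all higher in sdCAMs, beside 22.4%, and 4 in reporter mice after PBS, all higher in the mean of tdT+ and tdT- sdCAMs, beside 11.2%. In Ccr2-/- mice Fth1 was 3.76-fold (adjusted p = 2.14e-07), Ftl1 4.38-fold (adjusted p = 6.65e-09), Hmox1 4.22-fold (adjusted p = 1.04e-06) and Ncoa4 2.14-fold higher (adjusted p = 0.00136) in sdCAMs. In WT mice the Fth1 libraries were apart, with 640 to 794 CPM in MG and 2090 to 3060 in sdCAMs, and the difference of 1.95 missed the threshold (adjusted p = 0.0577) but passed it without sdCAMs of mouse 15 (0.0499). The third WT call, Tfrc (1.23, adjusted p = 0.047), was lost without any 1 of its 6 libraries (adjusted p 0.0728 to 0.19) and with library totals alone (0.271). With the mouse as a block it was lost as well (adjusted p = 0.0503), and in Ccr2-/- mice Tfrc (0.97, adjusted p = 0.0491) and Slc40a1 (1.00, adjusted p = 0.00282) then became called. In reporter mice Ftl1 (1.91, adjusted p = 0.0333) was lost without 6 libraries in turn (adjusted p 0.0504 to 0.121), and Hmox1 (1.80, adjusted p = 0.0104) without MG of mouse 174 (0.0633).

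In the main fit Slc40a1 and both metal transporters were not called between the cell types at rest. Slc40a1 differed by -0.64 in WT (adjusted p = 0.437), 1.01 in Ccr2-/- (adjusted p = 0.115) and -0.11 in reporter mice (adjusted p = 0.972). Its libraries were apart in WT mice, with less in sdCAMs, and in Ccr2-/- mice, with more. In Ccr2-/- mice edgeR called it with the mouse as a block (adjusted p = 0.00282) and with only the groups compared (1.03, adjusted p = 0.000432). Slc11a1 differed by -0.50, -0.29 and -0.72 (adjusted p = 0.232, 0.15 and 0.111), and Slc11a2 by -0.55, 0.38 and 0.09 (adjusted p = 0.371, 0.24 and 0.936).

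**Figure D4:**
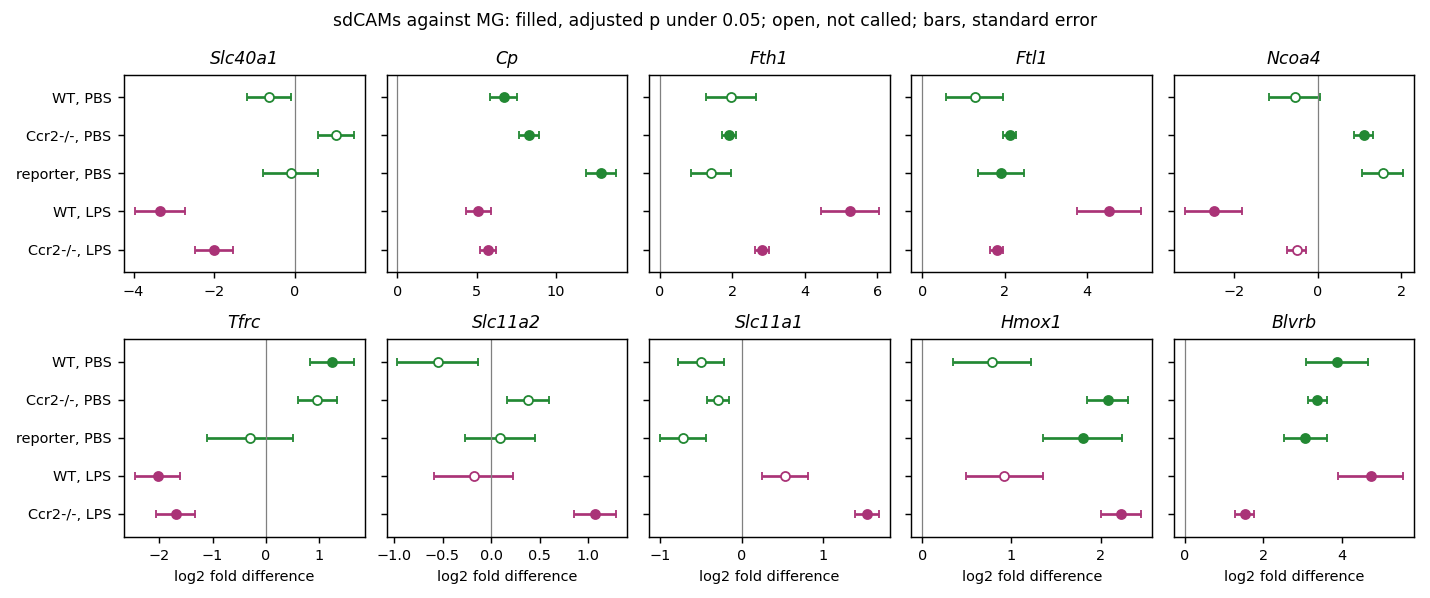
Log2 difference between sdCAMs and MG of each gene (x axis, a scale of its own in each panel, positive where sdCAMs are higher) at rest (green) and after LPS (purple) by genotype (rows), with standard errors as bars and filled points for an adjusted p under 0.05. Tfrc lies right of 0 at rest and left of 0 after LPS in WT and Ccr2-/- mice, and Slc40a1 is at its lowest, -3.35 and -2.01, after LPS.

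After CTL and LPS 7 genes differed between sdCAMs and MG in WT mice, 4 higher and 3 lower in sdCAMs, beside 36.7% of all genes tested, and 9 in Ccr2-/- mice, 7 higher and 2 lower, beside 27% of all genes. In both genotypes Cp, Blvrb, Fth1 and Ftl1 were higher in sdCAMs and Slc40a1 and Tfrc were lower. Slc40a1 was 39 to 195 CPM in MG and 3.57 to 14.6 in sdCAMs of WT mice (10.2-fold, adjusted p = 0.000801) and 70.2 to 157 against 18.2 to 33.7 in Ccr2-/- mice (4.02-fold, adjusted p = 0.0031). The WT log2 difference of -3.35 was -2.63 without MG of mouse 4 and -4.08 without sdCAMs of mouse 6. Tfrc was 4.10-fold lower in WT (adjusted p = 0.00165) and 3.23-fold lower in Ccr2-/- sdCAMs (adjusted p = 0.0015). With the IEG_correction mark as a covariate, the WT differences of Slc40a1 (-2.38, adjusted p = 0.0695), Tfrc (-1.52, adjusted p = 0.0985) and Ncoa4 (-0.55, adjusted p = 0.751) were no longer called. Without sdCAMs of mouse 4 the WT differences of Blvrb and Ftl1 were 3.51 and 3.45 in place of 4.74 and 4.54, and without MG of mouse 1 that of Cp was 6.37 in place of 5.11. Hmox1, Slc11a1 and Slc11a2 were not called in WT mice (0.92, 0.53 and -0.18, adjusted p = 0.103, 0.149 and 0.751), and with library totals alone they were -0.94, -1.29 and -1.96, the last pair called. DESeq2 called Hmox1 (1.20, adjusted p = 0.0271) and Slc11a1 (0.79, adjusted p = 0.00112) higher in sdCAMs. With its size factors edgeR called them too (1.20 and 0.80, adjusted p = 0.0414 and 0.0381), while Slc11a2 was 0.09 and uncalled with either. In Ccr2-/- mice Hmox1 (4.70-fold, adjusted p = 3.63e-07), Slc11a1 (2.90-fold, adjusted p = 1.27e-07) and Slc11a2 (2.11-fold, adjusted p = 0.000854) were higher in sdCAMs, and Ncoa4 did not differ by the test (-0.50, adjusted p = 0.12) but was called without sdCAMs of mouse V2m (-0.79, adjusted p = 0.021) and with library totals alone (-0.77, adjusted p = 0.0131).

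Whether the LPS response itself differed between cell types was tested with an interaction term, which uses the same libraries as the comparisons above. In Ccr2-/- mice 7 of the 10 genes were called, 2 with a more positive and 5 with a more negative change in sdCAMs, beside 8.14% of all genes. Tfrc rose in MG and was not called in sdCAMs, a difference of -2.65 on the log2 scale (SE 0.509, adjusted p = 0.00219). The fall of Slc40a1 was larger in sdCAMs by a log2 value of -3.01 (SE 0.642, adjusted p = 0.00517), as were those of Blvrb (-1.85, adjusted p = 0.00111) and Ncoa4 (-1.60, adjusted p = 0.00345). Slc11a1 rose in sdCAMs and was not called in MG, with a difference of 1.83 (SE 0.199, adjusted p = 7.43e-06). The differences of Fth1 (0.91, adjusted p = 0.0297) and Cp (-2.60, adjusted p = 0.027) were less secure. Fth1 was not called without 10 of the 12 libraries in turn (adjusted p 0.0504 to 0.106) or with library totals alone (0.0702), and Cp with DESeq2 (0.053) or without MG of mice 1m, 5f or V4f or sdCAMs of mice V2m or V4f (0.052 to 0.0857), while without MG of mouse 3m it was -4.21. In WT mice 1 gene was called, Tfrc (-3.26, SE 0.588, adjusted p = 0.00961), beside 1.32% of all genes. Slc40a1 had a WT difference of -2.71 (adjusted p = 0.0966), Fth1 of 3.29 (adjusted p = 0.0966) and Ftl1 of 3.27 (adjusted p = 0.10), and Ftl1 was called without sdCAMs of LPS mouse 1 (0.0455). With library totals alone Slc40a1 (-4.18, adjusted p = 0.0127), Ncoa4 (-3.49, adjusted p = 0.0296) and Cp (-3.03, adjusted p = 0.021) were called too.

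Earlier depletion and repopulation was examined by setting BLZ945 with LPS against CTL with LPS, the latter being the libraries of the LPS comparison above. By edgeR none of the 10 genes was called in WT MG, WT sdCAMs, Ccr2-/- MG or Ccr2-/- sdCAMs, beside 0.0763%, 0%, 0.0173% and 0% of all genes tested. Unadjusted p-values under 0.05 were found for 1, 1, 3 and 3 of the 10 genes. Over all genes tested they were found for 776 of 11789, 758 of 10504, 769 of 11558 and 998 of 11941. DESeq2 called Slc11a1 in both MG comparisons, beside 73 of 11789 and 38 of 11558 genes tested. It called none of the 10 in sdCAMs. In WT MG Slc11a1 was 332, 243 and 277 CPM after CTL and 424, 524 and 448 after BLZ945 (log2 fold change 0.72, SE 0.149, edgeR adjusted p = 0.221, DESeq2 adjusted p = 0.00447). In Ccr2-/- MG it was 348, 291 and 361 CPM after CTL and 688, 499 and 497 after BLZ945 (0.75, SE 0.147, edgeR adjusted p = 0.172, DESeq2 adjusted p = 0.00189). These groups did not overlap. In WT sdCAMs Tfrc was 21.3 to 25.7 CPM after CTL and 48.1 to 84.9 after BLZ945, apart but uncalled (1.33, SE 0.431, edgeR adjusted p = 0.689). How many of all genes were apart in these comparisons was not counted, so lack of overlap is a description only. Without WT MG of CTL mouse 1, edgeR called Slc11a1 too (0.84, adjusted p = 0.0416). Fth1 in Ccr2-/- MG (0.63, adjusted p = 0.627) was called without BLZ945 mouse B4f (0.83, adjusted p = 0.0244). In WT sdCAMs Blvrb and Ftl1 (-1.46 and -1.92, adjusted p = 0.725 and 0.711) were called without BLZ945 mouse 12 (-3.18 and -3.51, adjusted p = 0.0422 and 0.03), the only marked library among the 3 of its group. Without it every CTL library and no BLZ945 library was marked, so mark and treatment cannot be told apart in that fit.

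The reporter mice allowed tdT+ and tdT- sdCAMs of the same animals to be compared. After PBS edgeR called none of the 10 genes, beside 0.0236% of all genes, and DESeq2 called none. Beside 566 of all 12708 genes tested, 1 of the 10 had an unadjusted p under 0.05. That gene was Slc40a1, at 119, 166 and 79.2 CPM in tdT+ and 599, 882 and 548 in tdT- sdCAMs, lower in tdT+ cells in 3 of 3 mice (log2 difference -2.48, SE 0.823, adjusted p = 0.795). When only these groups entered the fit it was called (adjusted p = 0.0216). The log2 differences of the other 9 genes lay between -0.97 and 0.20, for example 5130 to 6640 against 4320 to 5980 CPM for Fth1 (0.17, SE 0.631) and 269 to 329 against 279 to 323 CPM for Blvrb (0.01, SE 0.453).

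After LPS 3 of the 10 were called, each with less in tdT+ sdCAMs, beside 10.8% of all genes. Fth1 was 9480, 5650 and 9470 CPM in tdT+ and 18300, 143000 and 18000 in tdT- sdCAMs of mice 1, 5 and 7 (-2.90, SE 0.678, adjusted p = 0.0117). Ftl1 was 360, 289 and 380 against 860, 5800 and 720 CPM (-2.87, SE 0.617, adjusted p = 0.00677), and Blvrb 9.12, 24.2 and 33.2 against 85.3, 176 and 43.6 CPM (-2.23, SE 0.483, adjusted p = 0.00724). Each was lower in tdT+ cells in 3 of 3 mice as labelled. Sex-linked genes went against these labels in mice 1 and 7. When only the groups compared entered the fit, none of the 3 was called (adjusted p 0.0501 to 0.127). Without tdT- sdCAMs of mouse 5 the values were -1.17, -1.23 and -1.56, all still called. Fth1 was not called with the mouse as a block (-2.06, adjusted p = 0.0688). With the uncertain columns exchanged, none of the 3 was called by edgeR (adjusted p 0.763 to 0.868), and the groups overlapped for each. In that order Fth1 was 9480 in tdT+ and 9470 CPM in tdT- sdCAMs of mouse 1, and 18300 and 18000 CPM in those of mouse 7. With both of these libraries left out all 3 were called (-3.43, -3.35 and -2.72, adjusted p = 0.0205, 0.0151 and 0.0175). Slc40a1 was higher in tdT+ libraries on the fitted scale without a call (3.04, adjusted p = 0.0604), and was called with library totals alone (4.15, adjusted p = 0.00595), where Blvrb was not (-1.07, adjusted p = 0.0632), and without tdT+ sdCAMs of mouse 1 or of mouse 7 (0.0188 to 0.036). Without tdT+ sdCAMs of mouse 5, the library with microglial markers, it was 0.24 and not called.

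**Figure D5:**
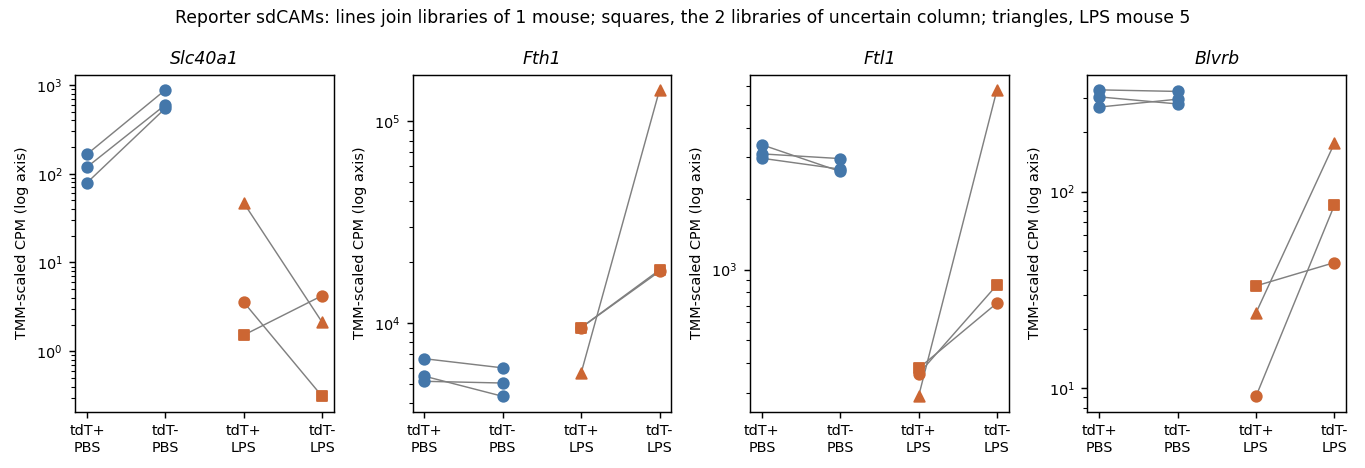
Level of Slc40a1, Fth1, Ftl1 and Blvrb (y axes, TMM-scaled CPM on a log scale) in tdT+ and tdT- sdCAMs of reporter mice after PBS (blue) and LPS (orange), with lines joining libraries of 1 mouse as labelled, squares for the pair of libraries of uncertain column and triangles for LPS mouse 5. Mouse 5 holds the extreme Fth1 (143000 CPM) and Ftl1 (5800 CPM) values of tdT- cells and the highest Slc40a1 (46.8 CPM) of tdT+ cells after LPS.

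The LPS response of the reporter populations differed for 2 of the 10 genes, beside 5.17% of all genes. Slc40a1 fell less in tdT+ than in tdT- sdCAMs, by 5.51 on the log2 scale (SE 1.28, adjusted p = 0.0193), and Ftl1 fell more (-3.07, SE 0.831, adjusted p = 0.0432). Mouse 5 weighed on both. Without its tdT+ library the Slc40a1 difference was 2.71 and not called (adjusted p = 0.104), and without its tdT- library the Ftl1 difference was -1.43 (adjusted p = 0.0239). Slc40a1 was 6.28 without tdT- sdCAMs of LPS mouse 7. Ftl1 was not called without any of 9 libraries in turn (adjusted p 0.0669 to 0.111) with the mouse as a block (-2.31, adjusted p = 0.108) or with library totals alone (-1.80, adjusted p = 0.083), and neither gene was called with the columns exchanged. Leaving out single libraries made calls of Fth1 (tdT- of LPS mouse 1 or 7, -3.44), Blvrb (tdT- of LPS mouse 7, -2.54) and Tfrc (tdT+ of PBS mouse 175, 4.63).

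A list of 68 further genes of iron and heme handling was read alongside. Its calls in reporter sdCAMs after LPS follow the labels and were not examined with the pair of columns exchanged. In WT MG 9 of the 50 genes tested rose after LPS and 8 fell, beside 30.9% of all genes called, and in Ccr2-/- MG 12 of 51 rose and 8 fell, beside 34.9%. In sdCAMs 8 of 52 rose and 1 fell in WT (6.32% of all genes), 12 of 54 rose and 10 fell in Ccr2-/- mice (28.8%), and 9 of 57 rose and 9 fell in tdT+ (13.6%) and likewise in tdT- cells (27.1%), while reporter MG had 2 higher of 51 (1.08%). Their median log2 fold change in these comparisons lay between -0.12 and 0.15. Of the 11 genes of heme synthesis, all tested in MG, 1 was higher and 3 lower in WT MG and 1 higher and 1 lower in Ccr2-/- MG.

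Among genes of iron entry Lcn2 stood out. It encodes lipocalin 2, which binds the iron-carrying siderophores of bacteria, and its mean level went from 0.0652 to 59.8 CPM in WT MG, from 8.73 to 11100 in WT sdCAMs, from 11.9 to 6670 in Ccr2-/- sdCAMs and from 0.636 to 13800 in tdT- sdCAMs. Slc39a14, a transporter of iron not bound to transferrin, went from 30.7 to 392 CPM in WT MG (log2 fold change 3.70, adjusted p = 0.00016) and from 22 to 244 in Ccr2-/- MG (3.50, adjusted p = 2.1e-06). Steap4, a metalloreductase, went from 1.39 to 101 CPM in WT sdCAMs (6.35, adjusted p = 0.0058) and from 1.27 to 836 in Ccr2-/- sdCAMs (9.34, adjusted p = 1.08e-08). Hp, which encodes the hemoglobin carrier haptoglobin, was at 0 in WT and Ccr2-/- sdCAMs at rest and at 49.6 and 224 CPM after LPS. Slc7a11, the cystine transporter of the NRF2 target list, rose in WT MG (5.40, adjusted p = 0.00191) and Ccr2-/- MG (4.27, adjusted p = 0.000425).

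Genes that fell included Slc46a1, a transporter of folate and heme, in WT MG (-1.45, adjusted p = 0.000483), Ccr2-/- MG (-1.47, adjusted p = 0.00107) and Ccr2-/- sdCAMs (-2.58, adjusted p = 0.00216). Hfe, the hemochromatosis protein that interacts with transferrin receptor, fell in Ccr2-/- sdCAMs (-2.08, adjusted p = 1.29e-06), tdT+ sdCAMs (-2.76, adjusted p = 0.000144) and tdT- sdCAMs (-3.45, adjusted p = 8.29e-06). Spic, a transcription factor known from iron-recycling macrophages of the spleen, fell from 32.2 to 6.51 CPM in Ccr2-/- sdCAMs (-2.30, adjusted p = 0.00961) and from 25.2 to 3 CPM in tdT+ sdCAMs (-3.01, adjusted p = 0.0407). Trf, which encodes transferrin, fell from 5560 to 338 CPM in tdT- sdCAMs (-3.97, adjusted p = 1.11e-05). At rest the hemoglobin scavenger receptor Cd163, one of the markers that define sdCAMs, averaged 807 CPM in WT sdCAMs and 0.397 in MG, and Blvra, the other biliverdin reductase, was higher in sdCAMs of WT (1.65, adjusted p = 0.0136), Ccr2-/- (1.80, adjusted p = 1.27e-07) and reporter mice (1.80, adjusted p = 0.00127). In Ccr2-/- mice the LPS response of Fbxl5, an iron-sensing subunit of a ubiquitin ligase, was more positive in sdCAMs (1.90, adjusted p = 4.57e-06) and that of Trf more negative (-1.65, adjusted p = 6.32e-06). After LPS, with the groups as labelled, 2 of 57 genes of the list were higher and 3 lower in tdT+ than in tdT- sdCAMs, beside 10.8% of all genes.

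The group means of the 18 groups were correlated to describe which genes had like patterns, with no test, since the groups share cell type and treatment and the values share library composition. They also span both batch labels and all genotypes, so offsets between these can enter the correlations. The pattern of Slc40a1 was closest to those of Cep68 (r = 0.964), Sft2d2 (0.959) and Arsb (0.951). That of Fth1 was closest to Batf (0.982), Selenow (0.970) and Isg15 (0.968), that of Cp to Clec4a1 (0.978), Aoah (0.969) and Ifi213 (0.966), and that of Slc11a2 to Ergic1 (0.979), Rnf149 (0.966) and Siglece (0.961). For Tfrc the closest were Heatr3 (0.922), Atic (0.907) and Ipo7 (0.889), for Ncoa4 Idua (0.954), Swap70 (0.951) and Poglut3 (0.936), and for Hmox1 Adam9 (0.951), Nampt (0.934) and Marcksl1 (0.931). For Blvrb they were Igf1 (0.932), Igfbp4 (0.927) and Ivd (0.924), for Ftl1 Psmb8 (0.899), Tmem176a (0.897) and Commd1 (0.885), and for Slc11a1 Rab20 (0.886), Tubb4b (0.879) and Slc12a4 (0.876). Among the 10 genes themselves Slc40a1 went with Ncoa4 (0.85) and against Fth1 (-0.80), Fth1 with Cp (0.86), and Ftl1 with Blvrb (0.84) over the same group means.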

How the data were processed

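RNA of the sorted cells, in picogram amounts, was amplified by the authors (SMARTer), turned into libraries with Nextera XT and read from a single end, and the submitters' processing notes name bcl2fastq 2.20, STAR 2.7.11a, featureCounts 2.0.8 and DESeq2 1.46.0. The deposited values are raw counts per gene symbol, without molecular identifiers, so amplification duplicates remain and intervals given here cover counting error only. The genome build (of a pair named) and the strand setting of counting were not given in the sources used here. All columns were matched to libraries by name, with 0 columns unused. Cell type was taken from the cell type label, since titles of Ccr2-/- libraries after LPS name the other one.

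Counts were fitted with edgeR 4.0.16 in R 4.3.3 (filterByExpr, TMM, quasi-likelihood test, two-sided), with Benjamini-Hochberg adjustment over all genes tested. LPS and BLZ945 comparisons used the 9 libraries of a cell type in WT or Ccr2-/- mice, the 6 of reporter MG or the 12 of reporter sdCAMs, and cell type comparisons the 18 of a genotype. Fold changes are fitted log2 values. The SE of edgeR values, also drawn as bars, is the absolute log2 fold change divided by the square root of the test's F statistic. Only counting error is reduced by depth, and amplification adds scatter that depth does not remove. MG and sdCAMs of a mouse are paired by the labels, except where sex-linked genes differ as given above (correlation of their deviations -0.129 to 0.328). The script was tested on simulated counts. Groups given as apart or not overlapping are described only, since the share of all genes that were apart was not counted. Alternatives were DESeq2 1.42.0 and its size factors, other low-count filters, a fold limit, the groups compared alone, the mouse as a block, the IEG_correction mark, single libraries left out and, added after the data were seen, library totals alone.

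The 10 genes and all lists were chosen with earlier results of these data known. Genes named from the further list were, in each comparison, up to 3 called in either direction that had the largest fold change among genes with a mean of 10 CPM or more, and like patterns were the 3 genes with the highest correlation at 10 CPM or more.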

Additional observations from a re-analysis of the deposited data

Results flagged for a closer look

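The LPS response differed between sdCAMs and MG by an interaction test for 1 gene in WT mice and 7 in Ccr2-/- mice, given as log2 differences that are positive where the change was more positive in sdCAMs. In WT mice it was -3.26 for Tfrc. In Ccr2-/- mice it was -2.65 for Tfrc, -3.01 for Slc40a1, -1.85 for Blvrb, -1.60 for Ncoa4, -2.60 for Cp, 1.83 for Slc11a1 and 0.91 for Fth1. Between tdT+ and tdT- sdCAMs of reporter mice the response differed by 5.51 for Slc40a1 and by -3.07 for Ftl1, values to which the libraries of mouse 5 contributed as described above and which were not called with the pair of columns exchanged, the order in which sex-linked genes were alike within each mouse.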

How the results depend on the processing

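Of 210 values (10 genes in 21 comparisons), 201 kept direction and side of the threshold with DESeq2's size factors, 203 with the study's filter on low counts, 209 with a mean of at least 10 counts, 205 with a log2 fold limit of 1 and 168 with library totals alone. DESeq2 gave 193 values, of which 166 held, and no adjusted p for 17 (Fth1 and Ftl1, and mostly Tfrc, in comparisons of reporter sdCAMs), and the groups compared alone 190, of which 166 held. 1 value reversed, namely Slc11a1 between sdCAMs and MG of WT mice after LPS, 0.53 in the main fit and -1.29 with library totals alone (adjusted p = 0.0199).

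The number of the 10 genes called moved by over 1.5 times as follows. For LPS in WT sdCAMs it was 3, and 7 with DESeq2, 6 with the groups compared alone and 6 with the marked libraries alone. Of all genes tested, 664 of 10504, 1655 of 10504, 1359 of 9694 and 1301 of 10339 were called in these fits. In reporter MG it was 1, and 5 with DESeq2, beside 118 and 855 of 10882 genes tested. In tdT+ sdCAMs it was 8, and 5 with DESeq2, where Tfrc and Ftl1 had no value and Slc40a1 was lost (0.0502), 3 with the columns exchanged and 5 with both left out. Of 12708 genes tested there, 1731 were called in the main fit and 2611 with DESeq2. Between cell types of WT mice after LPS it was 7, and 4 with the mark as a covariate, and for their interaction 1, and 5 with DESeq2, 4 with totals alone and 4 with the groups compared alone. The interaction had 174 of 13136 genes called in the main fit, 856 with DESeq2 and 2708 with totals alone. For BLZ945 it was 0, and 1 with DESeq2 in WT MG and in Ccr2-/- MG. DESeq2 called 73 of 11789 and 38 of 11558 genes there, and the main fit 9 and 2. For tdT+ against tdT- it was 0 after PBS, and 1 with the groups compared alone. After LPS it was 3, and 1 with DESeq2, where Fth1 and Ftl1 had no value, 5 with totals alone, and 0 with the groups compared alone or with the columns exchanged, with or without the replicate block. Of 12708 genes tested, the main fit called 1368, DESeq2 2012 and totals alone 3882. For the tdT interaction it was 2, and 4 with the study's filter, 1 with the replicate block and 0 with the columns exchanged, with or without the block. For settings without such a count here, the share of all genes called is not given.

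Leaving out 1 library gave 1 to 2 calls for LPS in WT sdCAMs, 0 to 4 in reporter MG, 4 to 7 in tdT+ sdCAMs, 1 to 2 for the WT interaction, 2 to 4 between cell types of reporter mice, 0 to 1 for BLZ945 in WT MG and in Ccr2-/- MG, 0 to 2 in WT sdCAMs, and 0 to 4 for the tdT interaction. For LPS in WT sdCAMs 137 to 293 of all genes were called then, against 664 in the main fit. For the other comparisons the count over all genes is not given here. The mouse as a replicate block changed 5 calls, those of Tfrc in WT and of Tfrc and Slc40a1 in Ccr2-/- mice at rest, Fth1 between tdT+ and tdT- after LPS and Ftl1 in the tdT interaction, and no other.

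Library totals alone moved the median log2 fold change of all genes to -1.55 for LPS in WT sdCAMs, -1.92 between WT cell types after LPS, -1.70 in their interaction, -0.75 for LPS in tdT- sdCAMs, 1.14 for tdT+ against tdT- after LPS and 1.21 in their interaction. In that order the share of calls that were higher went from 58.6 to 10.8%, 53.1 to 14.9%, 32.8 to 3.51%, 54.4 to 25.1%, 35.7 to 87.5% and 21.5 to 85.3%. It also went from 56 to 70.8% for LPS in tdT+ sdCAMs, 61 to 72.1% in reporter MG, 51.2 to 31.1% between Ccr2-/- cell types after LPS and 43 to 23.6% in their interaction. With DESeq2's size factors it went to 64% between WT cell types after LPS, 44.6% in their interaction and 25.2% for tdT+ against tdT- after LPS. The median of BLZ945 in WT sdCAMs became 1.41. No Fth1 pseudogene row exists, so that alternative was not run, and reporter MG and the tdT interaction use all groups of their fits already.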
